A study of Mus musculus with 8 samples.

Results

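The genes described are 8 ligands of the epidermal growth factor (EGF) family, Areg, Ereg, Hbegf, Tgfa, Egf, Btc, Epgn and Nrg1, and 2 receptors of the ERBB family, Egfr and Erbb3. They were found by their symbols in the deposited table of 55487 genes, where the 10 symbols occupy 11 rows, because Nrg1 is listed under 2 gene IDs. The libraries are bulk poly(A) RNA-seq of ileum, the last segment of the small intestine, from irinotecan-treated mice. Irinotecan, a topoisomerase I inhibitor used in chemotherapy, injures the gut lining. Of the 8 libraries, 4 are from Gsdme-deficient mice (genotype Gsdme-/-, here Gsdme_KO) and 4 from wild-type mice (Gsdme+/+, WT). All 8 mice had the same treatment. Untreated mice were not analysed here, and the values compare genotypes under the drug and not the response to it. Gasdermin E, the product of Gsdme, forms membrane pores once caspases cut it. The sources used here do not give age, dose, time after treatment or how the allele was made.

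EGF family ligands are made as membrane-anchored precursors, and metalloproteases such as ADAM17 cut them free to act on the same or neighbouring cells. They bind ERBB receptors, which pair with each other and signal through the RAS-ERK and PI3K-AKT routes. In the intestine this signalling drives crypt cell division and the closure of epithelial wounds, and amphiregulin and epiregulin are known as ligands of regenerating epithelium. AREG, TGF-alpha, EGF and epigen act through EGFR. HB-EGF, betacellulin and epiregulin also bind ERBB4, while neuregulin 1 binds ERBB3 and ERBB4. ERBB3 has little kinase activity of its own and signals by pairing with ERBB2 or EGFR.

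Epgn, Ereg, Areg and Btc form a cluster on mouse chromosome 5 (GRCm38). Epgn spans 91027464 to 91035215, Ereg 91074622 to 91093646 and Areg 91139599 to 91148432, all on the plus strand, and Btc spans 91357261 to 91402994 on the minus strand. The gaps between neighbours are 39.4 kb, 46.0 kb and 209 kb. Of the ligands in the cluster, the 250 bases before the RefSeq start are shown for Areg, which had the highest ligand level per length, and for Btc, its neighbour of lower level. The sources used here gave no window for Ereg, which lies nearer to Areg than Btc does. Capitals mark matches on either strand to the cyclic AMP response element (CRE) TGACGTCA and to the TATA box TATAAA.
Areg, chr5:91139349-91139598, plus strand, GRCm38.p6: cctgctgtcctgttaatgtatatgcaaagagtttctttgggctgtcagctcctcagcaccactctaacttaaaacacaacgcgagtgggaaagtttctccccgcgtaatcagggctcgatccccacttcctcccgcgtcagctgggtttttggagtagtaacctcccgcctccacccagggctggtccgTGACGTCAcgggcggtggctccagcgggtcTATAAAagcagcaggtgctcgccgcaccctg
Btc, chr5:91402995-91403244, minus strand, GRCm38.p6: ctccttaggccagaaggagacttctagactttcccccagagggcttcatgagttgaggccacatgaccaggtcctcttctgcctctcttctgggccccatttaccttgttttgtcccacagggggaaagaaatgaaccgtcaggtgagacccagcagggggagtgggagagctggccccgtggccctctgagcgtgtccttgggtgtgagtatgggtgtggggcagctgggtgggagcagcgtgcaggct
The Areg window held 1 CRE, beginning 61 bases before the start, and 1 TATA box, beginning 31 bases before it. The Btc window held neither. The window of Epgn, the cluster ligand of lowest level, is not shown. It held 1 TATA box, beginning 86 bases before the start, and no CRE. Over 32851 promoter windows of the same length, 1.55% held this CRE and 12.4% this TATA box. The AP-1 motif TGANTCA, searched on both strands, was in 6.75% of windows and in none of the windows of Areg, Btc and Epgn. A match of letters is a description of the window and not a bound site.

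The targeted gene and the make-up of the libraries were examined first. Gsdme had 113 to 634 normalized counts in Gsdme_KO and 2169 to 3376 in WT. The log2 difference was -3.32 (two-sided exact permutation p = 0.0286, which is the smallest for 4 against 4 libraries). Among the Gsdme_KO libraries, KO7 (634) and KO8 (464) lay above KO5 (187) and KO4 (113), though all were below the WT minimum. Values given below without KO4 and KO5 therefore rest on the Gsdme_KO libraries of higher Gsdme count. The cause of this spread was not tested. Reads in genes numbered 15617407 to 23437343 per library. Ileal enterocyte markers (7 genes, Slc10a2 and Fabp6 among them) were present in every library. The Gsdme_KO libraries KO4 and KO5 stood apart. Their 6 B cell markers summed to 7966 and 4477, while KO7 had 268, KO8 had 199 and WT 186 to 277. Their enterocyte markers summed to 119997 and 176658, whereas KO7 had 438006, KO8 had 327953 and WT 241978 to 437897. In KO4 each of the 7 was below every WT library. In KO5 this held for Vil1, Cubn, Anpep and Slc10a2. Alpi (5124), Apoa1 (79975) and Fabp6 (22058) were higher in KO5 than in WT8 (4605, 74870 and 17519). Other immune marker sums were also higher in KO4 and KO5 than in every WT library. T cell markers (5 genes) summed to 1048 and 863, against 292 to 435 in WT. Neutrophil markers (4 genes) summed to 843 and 239 (62.1 in KO7 and 124 in KO8), against 52.2 to 106 in WT. Macrophage and monocyte markers (5 genes) summed to 8780 and 6629 (3609 in KO7 and 4430 in KO8), against 4113 to 6331 in WT. Of these 5, Lyz2, Cd68, Csf1r and Itgam were above every WT library in both KO4 and KO5. Adgre1 was inside the WT range in both (266 and 211, against 128 to 268 in WT). The sums of 6 pan-epithelial genes, Epcam and keratins among them, overlapped, at 201112 to 227788 in Gsdme_KO and 199535 to 230557 in WT. Single genes of this sum moved in opposite directions in KO4 and KO5. Epcam was lower in both libraries (34389 and 36133) than the WT minimum of 38894. Krt18 was higher in both (13978 and 14934) than the WT maximum of 10170. In bulk tissue, fewer cells of a type and less RNA per cell cannot be told apart. For the tested members, values with all libraries and without KO4 and KO5 are therefore both given below, and the part of these cells in them was not tested. The labels do not say whether each library is a separate litter or day, so p-values measure the spread between these 8 libraries.

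Per kilobase of merged exon, the level ran over nearly 3 orders of magnitude. On this scale Erbb3 had the highest mean over the 8 libraries, 983 normalized counts per kb, followed by Areg with 743, Ereg with 313, Hbegf with 170, Tgfa with 118, Egfr with 73.1, Btc with 52.5, Nrg1 with 23.8, Epgn with 1.93 and Egf with 1.10. Not all steps of this order held in every library. Erbb3 exceeded Areg in 5 of 8 libraries, Hbegf exceeded Tgfa in 6 and Egfr exceeded Btc in 6, so these neighbours were not separated by their spread. Areg exceeded Ereg, Btc exceeded Nrg1, and Nrg1 exceeded Epgn in 8 of 8. Areg and Ereg together made up 65.9% to 82.2% of the summed ligand level per kb in Gsdme_KO and 59.2% to 78.3% in WT. Egf, the founding ligand of the family, was near the floor of the table, and markers of Brunner glands, a duodenal source of EGF, summed to 1.22 to 6.45 normalized counts in Gsdme_KO and 0 to 9.08 in WT.

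**Figure D1:**
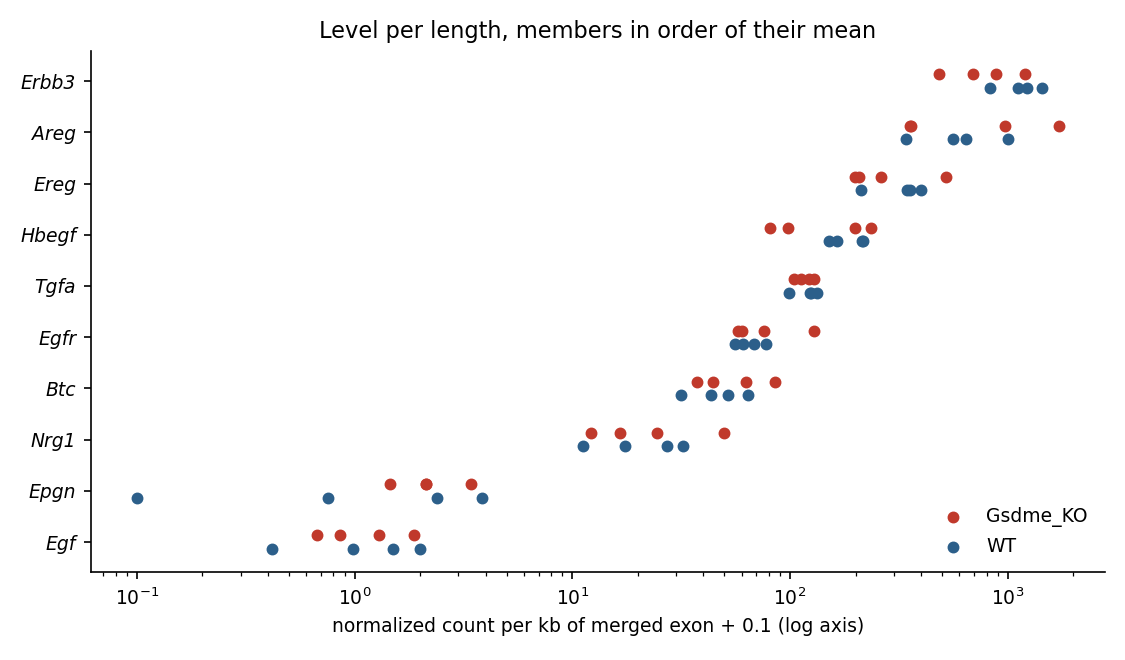
Level of each member in normalized counts per kilobase of merged exon, plus 0.1, on a log axis, with 1 point per library (Gsdme_KO above WT in each row). Erbb3, Areg and Ereg had the highest means (983, 743 and 313), and Epgn and Egf the lowest (1.93 and 1.10).

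No member differed between the genotypes by the test across all genes. Of the 10 members, 9 had a mean of at least 10 normalized counts and were tested, and 0 were called by limma at an adjusted p under 0.05, where 0.00612% of the 16352 genes tested were called. The limma adjusted p of the 9 ran from 0.849 to 0.989. At an unadjusted p under 0.05 the count was also 0 of 9, against 4.38% of all genes tested, and on recovered reads edgeR called 0 members, against 0.00612% of genes, and DESeq2 0, against 0.055%. Without KO4 and KO5, limma called 0 of 9, against 0.00617% of genes, and 2 of 9, Ereg and Hbegf, had an unadjusted p under 0.05, against 2.74%. The log2 fold change was positive for 5 and negative for 4, with a median of 0.05, beside a median of 0.00 over all genes tested (0.0026). In 0 of 9 did the 4 libraries of each genotype separate without overlap, against 2.5% of all genes. The intervals are wide, and a difference as large as their bounds is not shown to be absent.

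**Figure D2:**
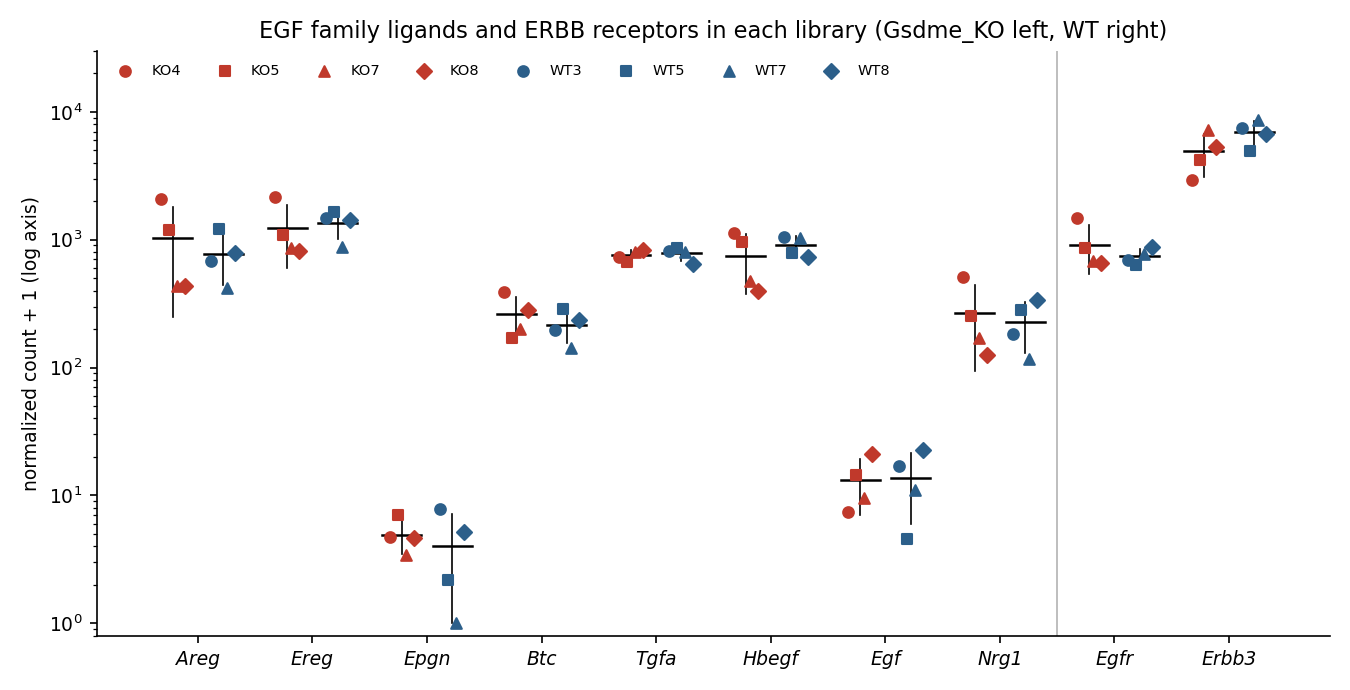
Normalized count plus 1 (log axis) of each member in each library, Gsdme_KO in red left of WT in blue, with the mean and SD of 4 libraries (lower bars stop at a count of 0). The genotypes overlapped for every member, and KO4 was the highest library for 6 of the 10.

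Among ligands of EGFR alone, Areg, which encodes amphiregulin, varied most between mice of those above 100 normalized counts. It stood at 2081 normalized counts in KO4 and 1180 in KO5, with 433 in KO7 and 434 in KO8, against 682 in WT3, 1218 in WT5, 415 in WT7 and 782 in WT8. KO4 lay above every WT library, while the other Gsdme_KO libraries fell within the WT range. The means were 1032 ± 783 in Gsdme_KO and 774 ± 334 in WT (SD, n = 4 each), a log2 fold change of 0.19 with an SE of 0.54 (limma adjusted p = 0.948). The 95% interval on the fold scale was 0.491 to 2.67. Without KO4 and KO5 the log2 fold change was -0.73 with an SE of 0.35 (limma adjusted p = 0.999), and over all alternatives tried that adjusted p ran from 0.722 to 1.00. Amphiregulin is also made by group 2 innate lymphoid cells, and Il1rl1, the IL-33 receptor gene in that marker list, was at 1365 in KO4 and 718 in KO5, with 509 in KO7 and 381 in KO8, against 405 in WT3, 994 in WT5, 480 in WT7 and 708 in WT8. The other expressed markers did not have this order: Gata3 was at 29.2 to 55.6 in Gsdme_KO and 24.8 to 37.6 in WT, highest in KO5, and Rora at 156 to 196 in Gsdme_KO and 150.5 to 207 in WT, highest in WT8. The summed list of 5 markers, most of it Il1rl1, was 572 to 1607 in Gsdme_KO and 596 to 1211 in WT, with Il5 and Il13 at 0 to 17.3 in all libraries, and none of the 5 was at 0 throughout. The part of these cells in the Areg values was not tested.

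Tgfa, the gene of transforming growth factor alpha and a ligand of villus epithelium, was the steadiest member. It stood at 727 normalized counts in KO4 and 673 in KO5, with 794 in KO7 and 834 in KO8, against 807 in WT3, 865 in WT5, 803 in WT7 and 644 in WT8. Its highest library was 1.34 times its lowest, whereas for Areg the ratio was 5.02. The log2 fold change was -0.04 with an SE of 0.11 (limma adjusted p = 0.951), and the 95% interval on the fold scale, 0.813 to 1.17, was the narrowest of the members. With KO4 and KO5 left out it was 0.07 with an SE of 0.13. Tgfa lies on chromosome 6, as Gsdme does, 35.9 Mb from it.

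Egf and Epgn were close to the detection floor. Egf was at 6.45 normalized counts in KO4 and 13.5 in KO5, with 8.53 in KO7 and 20.1 in KO8, against 15.9 in WT3, 3.57 in WT5, 9.96 in WT7 and 21.5 in WT8, from 3 to 26 reads. Both genotypes spanned nearly the same range, and the log2 fold change was 0.05 with an SE of 0.55 (limma adjusted p = 0.989), or 0.27 with an SE of 0.68 when KO4 and KO5 were left out. Epgn, which encodes epigen and lies 39.4 kb from Ereg, had 2 to 8 reads in Gsdme_KO and 0 to 6 in WT and did not reach the mean required for testing. At these counts a difference in Epgn could not be judged. For Egf the interval on the fold scale was 0.432 to 2.47, and a difference within it is not shown to be absent. The interval of Areg, a gene of far higher level, was of similar width (0.491 to 2.67). The second gene ID listed as Nrg1 had 0 reads in all 8 libraries.

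**Figure D3:**
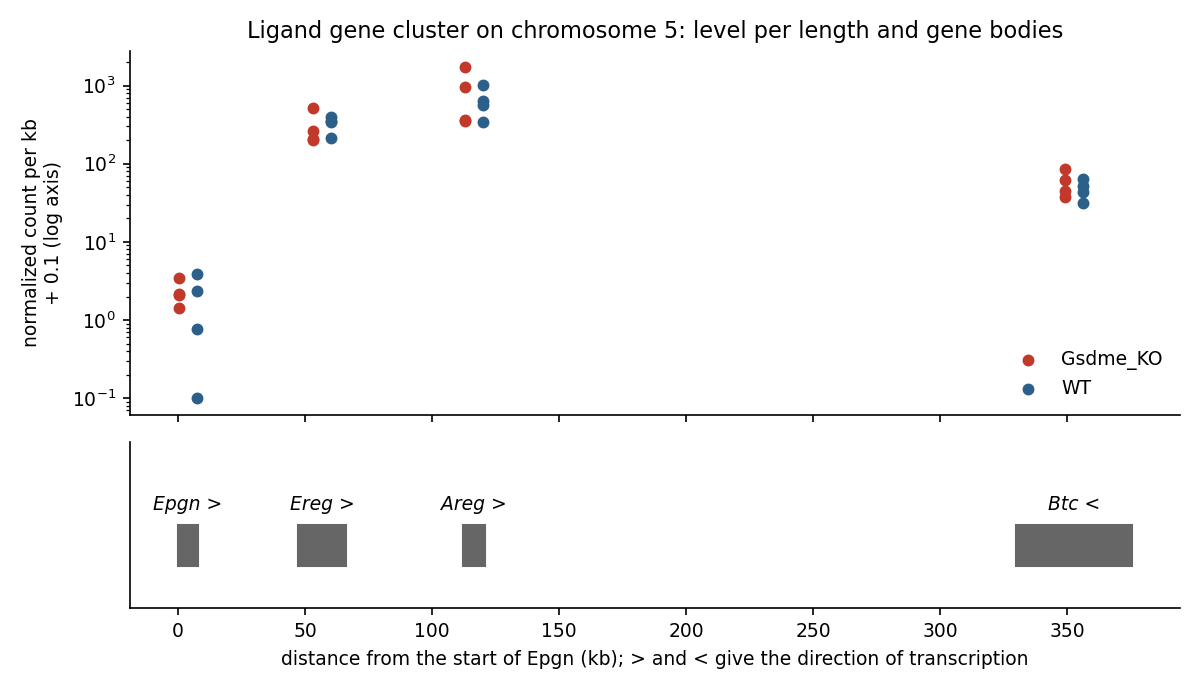
The chromosome 5 ligand cluster, with distance from the start of Epgn in kb on the horizontal axis. The upper panel gives normalized counts per kb plus 0.1 (log axis, 1 point per library, Gsdme_KO left of WT) and the lower panel the gene bodies. Ereg and Areg, 46.0 kb apart, had means of 313 and 743, and Epgn beside them 1.93.

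Of the ligands that also bind ERBB4, Ereg, which encodes epiregulin, was at 2145 normalized counts in KO4 and 1084 in KO5, with 853 in KO7 and 820 in KO8, against 1465 in WT3, 1657 in WT5, 874 in WT7 and 1429 in WT8. KO4 was the highest library, and KO7 and KO8 were just under the lowest WT library. The log2 fold change was -0.22 with an SE of 0.32 (limma adjusted p = 0.901). It was -0.53 without KO4 alone (95% interval -1.02 to -0.04, limma adjusted p = 1.00) and -0.66 without both KO4 and KO5 (SE 0.23, 95% interval -1.18 to -0.13, limma adjusted p = 0.999), so neither passed the threshold. Reads of Gm19610, an antisense gene sharing 141 bases of exon with Ereg, numbered 564 over the 8 libraries. The sources used here do not give the strand setting of the counting, so reads of the pair could not be separated with certainty.

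Hbegf, the gene of heparin-binding EGF, an early ligand of wounded epithelium that lies on chromosome 18, divided the Gsdme_KO libraries into 2 pairs. It stood at 1133 normalized counts in KO4 and 962 in KO5, with 474 in KO7 and 392.5 in KO8, against 1051 in WT3, 791 in WT5, 1034 in WT7 and 726 in WT8. KO7 and KO8 lay below every WT library and KO4 lay above every WT library. With all libraries the means were 740 ± 363 in Gsdme_KO and 900 ± 166 in WT (SD, n = 4 each), a log2 fold change of -0.40 with an SE of 0.34 (limma adjusted p = 0.849). When KO4 and KO5 were left out it was -1.04 (SE 0.18, limma adjusted p = 0.932), which did not pass the threshold. Over all alternatives its adjusted p ran from 0.730 to 1.00. Ereg and Hbegf, 2 of the 9 tested members, were below every WT library in both KO7 and KO8, as were 5.92% of the 16212 genes tested without KO4 and KO5, while 0 of 9 were above, against 5.43%. This comparison of KO7 and KO8 was made after the values were seen.

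Btc, which encodes betacellulin, was at 386 normalized counts in KO4 and 168 in KO5, with 200 in KO7 and 283 in KO8, against 196 in WT3, 288 in WT5, 142 in WT7 and 233 in WT8. KO4 alone exceeded the WT range, and the log2 fold change was 0.24 with an SE of 0.30 (limma adjusted p = 0.883), or 0.03 without KO4 and 0.19 without both KO4 and KO5. Nrg1, the neuregulin gene known mainly from mesenchymal cells around the crypts, was at 512 normalized counts in KO4 and 253 in KO5, with 171 in KO7 and 125 in KO8, against 180 in WT3, 280 in WT5, 115 in WT7 and 334 in WT8. Its log2 fold change was 0.13 with an SE of 0.47 (limma adjusted p = 0.960), or -0.52 with an SE of 0.39 when KO4 and KO5 were left out, and again KO4 alone exceeded the WT range. Markers of fibroblasts and telocytes, 6 genes of which none was at 0, summed to 20929 in KO4 and 20130 in KO5, with 14384 in KO7 and 16840 in KO8, against 13441 to 23871 in WT, where WT8 was highest. The part of these cells in the Nrg1 values was not tested.

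**Figure D4:**
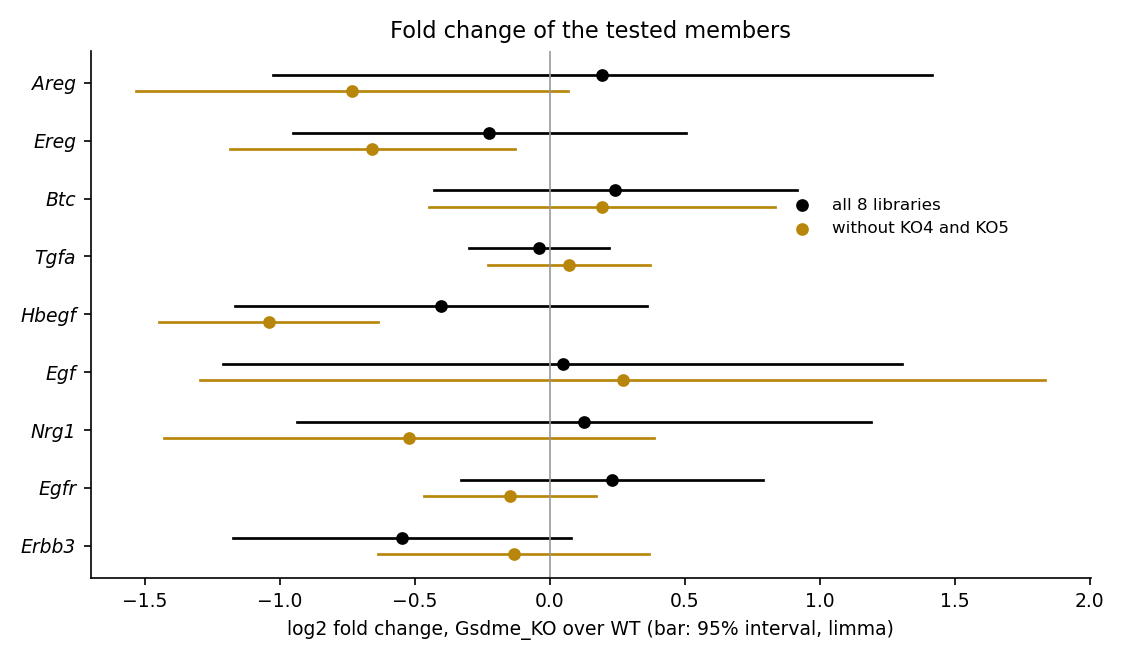
Log2 fold change of the 9 tested members, Gsdme_KO over WT, on the log2(normalized count + 1) scale, with 95% limma intervals, for all 8 libraries (black) and without KO4 and KO5 (gold). With all libraries every interval includes 0. Without KO4 and KO5 the values of Areg, Nrg1 and Egfr lie below 0 (-0.73, -0.52 and -0.15), and the intervals of Ereg (-1.18 to -0.13) and Hbegf (-1.45 to -0.63), not adjusted for the number of genes, exclude 0.

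In KO4, Egfr was above and Erbb3 below every WT library. Egfr was at 1466 normalized counts in KO4 and 861 in KO5, with 677 in KO7 and 653 in KO8, against 688 in WT3, 634 in WT5, 771 in WT7 and 877 in WT8. Only KO4 lay outside the WT range. Egfr means were 914 ± 379 in Gsdme_KO and 742 ± 106 in WT (SD, n = 4 each), a log2 fold change of 0.23 with an SE of 0.25 (limma adjusted p = 0.872), or -0.15 with an SE of 0.14 when KO4 and KO5 were left out. Erbb3 was at 2915 in KO4 and 4162 in KO5, with 7225 in KO7 and 5303 in KO8, against 7412 in WT3, 4972 in WT5, 8602 in WT7 and 6724 in WT8. KO4 and KO5 were below every WT library, and KO7 and KO8 were inside the WT range. Erbb3 means were 4901 ± 1831 in Gsdme_KO and 6927 ± 1517 in WT, a log2 fold change of -0.55 with an SE of 0.28 (limma adjusted p = 0.849), the largest of the 9 in size with all libraries. Without KO4 and KO5 it was -0.13 (SE 0.22, limma adjusted p = 0.999), and over all alternatives the adjusted p ran from 0.428 to 1.00. Scaling each library to its pan-epithelial genes gave an Erbb3 value of -0.56. The log2 shifts of this scaling were small, -0.011 in KO4 and 0.064 in KO5, so it could change the value little. The sum of enterocyte markers was also lowest in KO4 and KO5, as given above, and the part of enterocytes in the Erbb3 values was not tested.

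The ratio of Egfr to Erbb3 normalized counts within a library does not depend on scaling between libraries. It was 0.503 in KO4 and 0.207 in KO5, with 0.0938 in KO7 and 0.123 in KO8, against 0.0928 in WT3, 0.127 in WT5, 0.0896 in WT7 and 0.130 in WT8. KO4 and KO5 were above every WT library, and KO7 and KO8 were within the WT range. The mean log2 ratio was -2.42 ± 1.07 in Gsdme_KO and -3.20 ± 0.29 in WT (SD, n = 4 each), a difference of 0.78 that did not pass the test (exact permutation p = 0.257, two-sided). With KO4 and KO5 left out, the difference was -0.01 (exact permutation p = 0.933).

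Erbb2, the ligandless partner of ERBB3, followed Erbb3 from library to library. It stood at 1265 normalized counts in KO4 and 1669 in KO5, with 2461 in KO7 and 1866 in KO8, against 2438 in WT3, 1660 in WT5, 2737 in WT7 and 2194 in WT8 (limma adjusted p = 0.849). Its log2 fold change with KO4 and KO5 left out was -0.05 with an SE of 0.20. Among 14315 protein-coding genes, the 3 whose log2 values over the 8 libraries were most like those of Erbb3 were Slc34a2 (Pearson r = 0.997), a phosphate transporter of the ileal brush border, Zc3h18 (0.99) and Erbb2 (0.986). Slc34a2 was at 3362 in KO4 and 5540 in KO5, with 11096 in KO7 and 6950 in KO8, against 11462 in WT3, 6302 in WT5, 13124 in WT7 and 9473 in WT8. The Erbb3 to Erbb2 ratio was 2.30, 2.49, 2.94 and 2.84 in KO4, KO5, KO7 and KO8, against 3.04, 2.99, 3.14 and 3.06 in WT3, WT5, WT7 and WT8. All 4 Gsdme_KO ratios were below all 4 WT ratios, with KO7 and WT5 close to each other. Among single genes, 2.5% of those tested separated the genotypes without overlap, and no such share was computed for ratios. The Erbb3 to Erbb2 ratio was chosen after its values were seen and was not tested. Erbb4, the remaining receptor of the family, was listed at 0 reads in all 8 libraries.

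**Figure D5:**
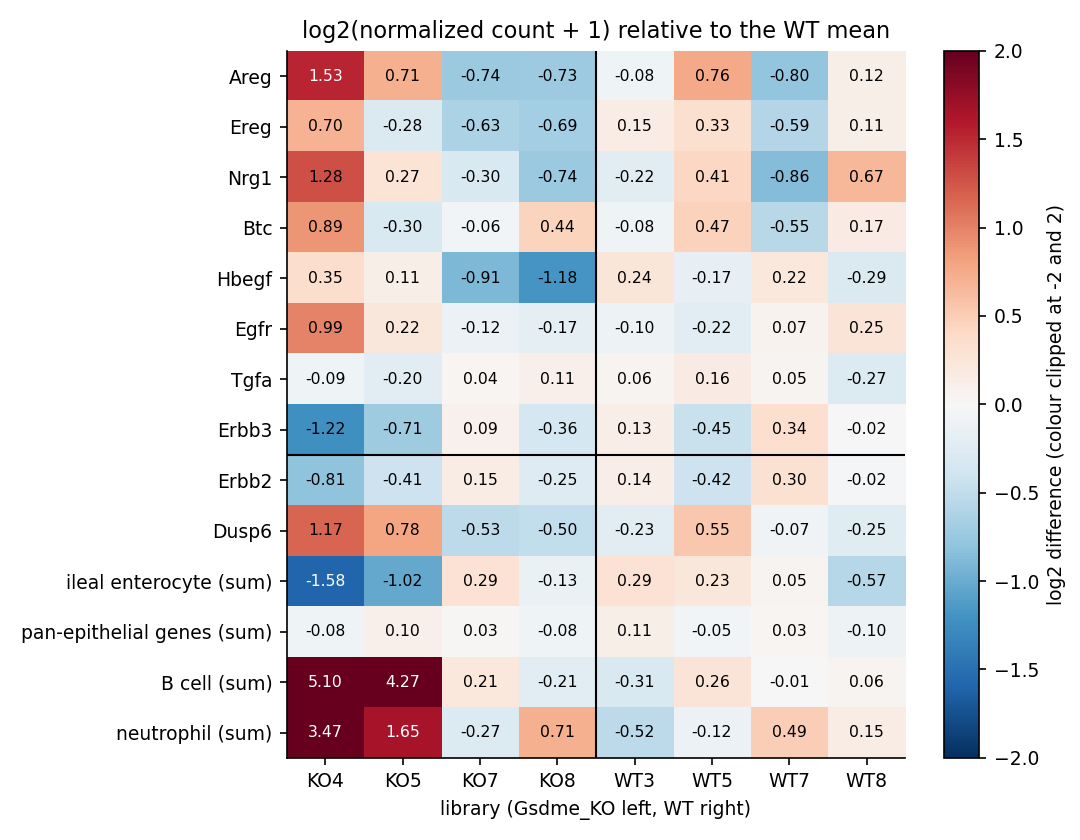
Log2(normalized count + 1) of members, of Erbb2 and Dusp6, and of summed marker lists in each library, minus the WT mean (numbers in cells, colour clipped at -2 and 2, Gsdme_KO left of WT). KO4 was high for Areg (1.53), Nrg1 (1.28) and Egfr (0.99) and low for Erbb3 (-1.22), with B cell markers at 5.10 and enterocyte markers at -1.58.

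Pairs of members were also compared from library to library. Over the 8 libraries and the 8 members above a mean of 50, 28 pairs were examined, and 0 passed a Benjamini-Hochberg adjusted exact permutation p of 0.05. Areg and Nrg1 had a Pearson r of 0.91 (exact permutation p = 0.00223, adjusted p = 0.0585) and a Spearman rho of 0.90 (exact permutation p = 0.00456, adjusted p = 0.10), with r = 0.79 after leaving out KO4 and WT7, the 2 libraries farthest from the Areg median. Areg and Ereg had r = 0.87 (exact permutation p = 0.00776, adjusted p = 0.0585) and rho = 0.81 (exact permutation p = 0.0218, adjusted p = 0.122), with r = 0.72 without the same 2 libraries. Ereg and Nrg1 had r = 0.87 (exact permutation p = 0.00734, adjusted p = 0.0585) and rho = 0.81 (exact permutation p = 0.0218, adjusted p = 0.122), with r = 0.70 after leaving out KO4 and KO8, the 2 libraries farthest from the Ereg median. In the 6 libraries other than KO4 and KO5, r was 0.94 for Areg with Ereg, 0.84 for Areg with Nrg1 and 0.82 for Ereg with Nrg1. Areg and Erbb3 ran in opposite directions, with r = -0.84 (exact permutation p = 0.00836, adjusted p = 0.0585) and rho = -0.86 (exact permutation p = 0.0107, adjusted p = 0.10). That r was -0.59 without KO4 and WT7 and -0.52 without KO4 and KO5. Of the 28 pairs, 12 had a negative r. Tgfa and Egfr also had a rho of -0.86 (exact permutation p = 0.0107, adjusted p = 0.10). Their r was -0.58 (exact permutation p = 0.12, adjusted p = 0.236), and -0.91 without KO4 and KO5. Egfr and Erbb3 had r = -0.67, which turned to 0.53 without KO4 and KO5. After each genotype's mean was subtracted, r over the 8 libraries was 0.91 for Areg with Nrg1, 0.93 for Areg with Ereg, 0.92 for Ereg with Nrg1 and -0.95 for Areg with Erbb3. These values are a description, and 4 libraries are too few for an r within each genotype.

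The genes most like Areg over the 8 libraries, by the same measure, were Crlf3 (Pearson r = 0.98), Hs3st1 (0.976), which encodes a heparan sulfate sulfotransferase, and Ttpal (0.975). Hs3st1 was at 712 normalized counts in KO4 and 647 in KO5, with 373 in KO7 and 381 in KO8, against 428 in WT3, 643 in WT5, 376 in WT7 and 481 in WT8. KO4, KO5 and WT5 were thus its high libraries, as they were for Areg. These 3 were picked from 14315 genes for the size of r, so r is a description.

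The wider ERBB pathway was read from 5 lists with 73 symbols, of which 71 genes were tested. None of them was called (0 by limma, 0 at an unadjusted limma p under 0.05 against 4.38% of all genes tested), 45 had a positive and 26 a negative log2 fold change, and the median was 0.05. Of all genes tested, 50.6% had a positive log2 fold change, or 52.0% with KO4 and KO5 left out. Ligand shedding genes (7 of 11 positive, 0 called, median 0.02) were led in level by Adam10, a sheddase of EGF and betacellulin, and Timp3, an inhibitor of ADAM17. Adam10 had 4239 normalized counts in KO4 and 3209 to 3535 in the other Gsdme_KO libraries, against 3275 to 3602 in WT. Timp3 had 2582 in KO4 and 1345 to 1707 in the other Gsdme_KO libraries, against 1328 to 1828 in WT. Signal relay genes (10 of 23 positive, 0 called, median -0.01) had a highest library 1.13 to 2.51 times the lowest, with a median of 1.31. The widest of them was Gab1, an adaptor of receptor tyrosine kinases. It was at 251 in KO4 and 367 in KO5, with 629 in KO7 and 537 in KO8, against 486 to 579 in WT. For Gab1, KO4 and KO5 were below and KO7 above every WT library. The relay genes of highest mean were Mapk3, which encodes ERK1, and Stat3, with log2 fold changes of -0.13 (SE 0.19) and 0.11 (SE 0.14), or 0.12 and -0.01 with KO4 and KO5 left out. In that fit, ligand shedding genes were positive in 5 of 11 and signal relay genes in 8 of 23. In either list 0 were called and 0 had an unadjusted limma p under 0.05.

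Feedback and receptor turnover genes had a positive log2 fold change in 17 of 20 (0 called, median 0.10). With KO4 and KO5 left out, 8 of 20 were positive (0 called, median -0.03). In that fit 2 of 20, Errfi1 and Dusp6, had an unadjusted limma p under 0.05, against 2.74% of all genes tested. The summed level of the list was 22716 in KO4 and 18173 in KO5, with 13137 in KO7 and 13188 in KO8, against 13604 to 16390 in WT. Dusp6, the ERK phosphatase that is itself induced by ERK, was at 6855 normalized counts in KO4 and 5254 in KO5, with 2114 in KO7 and 2161 in KO8, against 2609 in WT3, 4461 in WT5, 2907 in WT7 and 2573 in WT8. KO4 and KO5 were above every WT library and KO7 and KO8 below every WT library, and WT5 was the high WT library, as it was for Areg. The log2 fold change was 0.23 with an SE of 0.40 (limma adjusted p = 0.921), or -0.51 with an SE of 0.21 when KO4 and KO5 were left out (limma adjusted p = 0.999). Errfi1, an inhibitor that binds EGFR, was second in level. It was at 1866 in KO4 and 1500 in KO5, with 1407 in KO7 and 1141 in KO8, against 1495 to 1787 in WT. Its KO7 and KO8 values were thus also below every WT library. ERK target genes had a positive log2 fold change in 9 of 14 (0 called, median 0.15). With KO4 and KO5 left out it was 4 of 14 (0 called, median -0.16). In that fit 1 of 14, Fos, had an unadjusted limma p under 0.05, against 2.74% of all genes tested. Its log2 fold change there was -0.73 with an SE of 0.18 (limma adjusted p = 0.999). Of the ERK target genes of highest level, Mcl1, a survival gene, had 5538 to 7508 in Gsdme_KO and 5504 to 6892 in WT. Ccnd1, which encodes cyclin D1, was at 6376 in KO4 and 3968 in KO5, with 2498 in KO7 and 3017 in KO8, against 2691 to 3744 in WT. Among the other ligands and receptors (5 symbols, 3 tested, 0 called, median 0.02), Nrg4 was second to Erbb2, with 12.01 to 31.0 in Gsdme_KO and 9.93 to 29.5 in WT.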

How the data were processed

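The deposited table holds normalized signal, which the authors obtained by dividing each library's gene counts by a size factor. Tools named in the submitters' processing notes are DESeq2, featureCounts, Subread, HISAT2 and SAMtools, with build GRCm38. Tool versions, strand setting and annotation release are not given in the sources used. Per the labels' protocols, libraries were strand-specific after poly(A) selection. Whole reads were recovered: 100% of values in each library were whole multiples of its step (tolerance 0.01 reads). Headers number the libraries otherwise than the labels number the mice, so columns were assigned to genotypes only. No libraries were alike within sampling noise (lowest chi-square per degree of freedom 12.5).

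Main test: limma-trend (limma 3.58.1, R 4.3.3) on log2(normalized count + 1) for 16352 genes (mean of 10 or more), Benjamini-Hochberg adjusted over all of them and called under 0.05, with no covariate. Fold changes are on that scale, which understates changes of low genes. Alternatives were pseudocounts of 0.5 and 5, no filter, a mean of at least 50, TMM, pan-epithelial scaling, edgeR 4.0.16 and DESeq2 1.42.0 on recovered reads, and libraries left out. edgeR called 1 gene and DESeq2 called 9. Lengths are merged exons of GENCODE M21 and promoters are from RefSeq (GRCm38.p6). The limma code was first tested on simulated data. Ratios and correlations were compared by exact permutation. Members, lists and alternatives were chosen with earlier results of these data known. Members were all named. Of other lists, called genes or else the 2 of highest mean were named. Gab1, the relay gene of widest spread, was also named, and Fos for its unadjusted p without KO4 and KO5. Il1rl1, Gata3, Rora, Il5, Il13 and marker sums were given beside members they bear on. Epcam, Krt18 and single enterocyte, macrophage and monocyte markers were named for their values in KO4 and KO5.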

Additional observations from a re-analysis of the deposited data

How the results depend on the processing

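Over 17 alternatives to the main fit, 0 members were called in any and 0 pathway genes in those run for the lists, and of 152 alternative log2 fold changes of members 136 kept their sign and 16 turned. Without KO4 and KO5 the value was -0.73 for Areg, -0.15 for Egfr, -0.52 for Nrg1 and 0.071 for Tgfa, and the Egfr to Erbb3 log2 difference was -0.014. Egf was at -0.077 by edgeR and -0.078 by DESeq2. Leaving out each library in turn gave -0.25 to 0.50 for Areg (negative without KO4 or WT7), -0.26 to 0.42 for Nrg1 (negative without KO4 or WT7), -0.024 to 0.36 for Egfr (negative without KO4), -0.41 to 0.36 for Egf and -0.13 to 0.017 for Tgfa. Ereg, Hbegf, Btc and Erbb3 kept their signs in all alternatives run, but their size moved when single libraries were left out, from -0.53 (without KO4) to -0.071 (without KO8) for Ereg, -0.66 (without KO4) to -0.15 (without KO8) for Hbegf, 0.027 (without KO4) to 0.42 (without KO5) for Btc and -0.76 to -0.33 for Erbb3. The cause of these turns was not tested. The genes called numbered 9 by DESeq2 and 0 to 1 with each library left out, against 1. The Gsdme difference was -3.71 to -2.88 with each library left out, where the smallest p possible is 0.0571, and -2.37 without KO4 and KO5 (exact permutation p = 0.133, the smallest possible). No paired analysis was possible because the columns carry no mouse numbers of the labels. Egf had no value with a mean of at least 50, and depth limits Egf and Epgn.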
